A study of Mus musculus with 55 samples.

Results

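Pyramidal neurons of the mouse prefrontal cortex that the labels call D1 cells were compared, across all genes, with those called D2 cells, in mice without the Fmr1 knockout. The comparison took every cell whose labels read No Knock Out and a passed quality control, which gave 15 D1 and 26 D2 cells, 41 of the 55 cells of the series. Each cell is 1 library, made with the Nextera XT kit from the total RNA of cytosol drawn into a patch pipette. D1 cells came from mice of 28 to 34 days and D2 cells from mice of 29 to 35 days, with both kinds present at 4 ages (29, 30, 31 and 34 days). The knockout cells of the series (Fmr1-/y mice) were not part of it. The sources used here do not give the strain, the number of animals or the way in which a cell was assigned to a kind. The labels also carry a side, which is 2 for each D1 cell and 1 for each D2 cell, so side and kind cannot be told apart. The animal behind each cell is unlabelled, and cells are not replicates. Each kind counted as 1 sample, no test was possible, and each SD describes these cells only.

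Dopamine reaches the prefrontal cortex from the midbrain and acts on pyramidal cells through 2 receptor classes. D1-class receptors couple to stimulatory G proteins and raise cyclic AMP, and D2-class receptors couple to inhibitory G proteins. Layer 5 pyramidal cells are of 2 broad types: pyramidal tract neurons, which send axons out of the cortex and carry strong h-current, and intratelencephalic neurons, which project within the cortex and to the striatum. In the prefrontal cortex D2 receptors have been described mainly in subcortically projecting layer 5 cells.

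Levels are given as CPM, a gene's counts scaled to 1000000 reads in genes per cell, and a difference is the mean of log2(CPM + 1) over D1 cells minus that over D2 cells, in log2 units. A difference of 2 log2 units or more (4-fold) is called past the threshold. On this scale a difference arises from the share of cells with a read as well as from the level in the cells that have one. A gene was measured if its mean was at least 1 CPM and at least 10% of cells had a read, which held for 11059 genes. Total counts ranged from 422978 to 10673072 per D1 cell and from 260943 to 7371668 per D2 cell. Ribosomal RNA genes held a median of 3.50% of counts in D1 cells (highest 27.7%) and 7.90% in D2 cells (highest 34.8%). For mitochondrial genes the medians were 4.46% (highest 44.8%) and 3.91% (highest 29.3%). The part of these shares in the differences was not tested. Genes with a read numbered 6047 in the median D1 cell and 4989.5 in the median D2 cell. Cells with a read in at least 4000 genes (gene-rich cells) numbered 9 of 15 D1 and 13 of 26 D2 cells, but they were not alike in the number of genes: the D1 cells had a median of 6372 (4266 to 8519) and the D2 cells of 7421 (6209 to 9938).

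**Figure D1:**
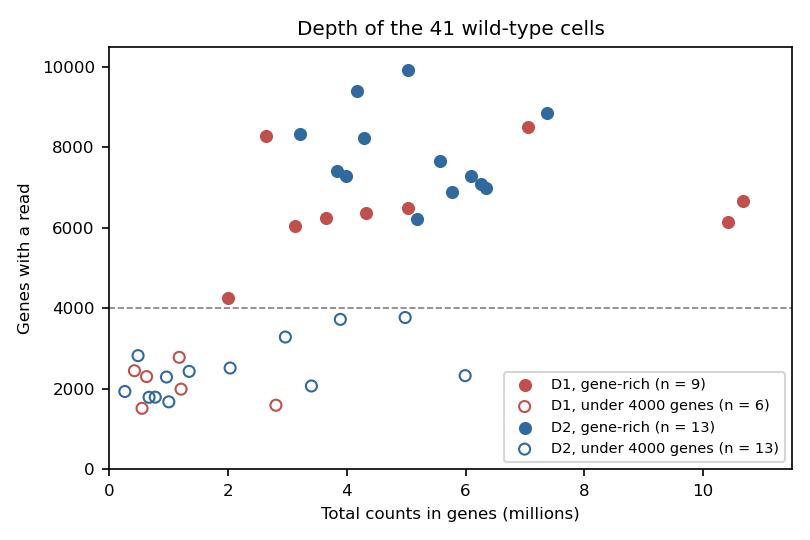
Total counts in genes (horizontal, in units of 1000000 counts) against the number of genes with a read (vertical) for each of the 41 wild-type cells; filled points are cells with at least 4000 genes, the dashed line. Gene-rich D2 cells begin at 6209 genes, while 1 gene-rich D1 cell has 4266.

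The cells carried the marks of pyramidal neurons in both kinds. Slc17a7, the vesicular glutamate transporter of cortical excitatory cells, had reads in 13 of 15 D1 cells (lowest 0, median 225, highest 1189 CPM) and 26 of 26 D2 cells (1.04, 398 and 2166 CPM). Of 11 measured pyramidal markers none lay past the threshold, with a median difference of -0.20, and -0.03 in gene-rich cells. Gad1, which makes GABA in interneurons, had reads in 4 of 15 and 11 of 26 cells, at up to 101 CPM in D1 cells and up to 649.7 CPM in D2 cells; in 3 D2 cells with fewer than 4000 genes it stood at 208, 288 and 649.7 CPM. Drd2 had no read in any of the 41 cells. For the D2 cells this allows a share of up to 13.2% with a read (exact 95% interval), which limits detection and not expression and takes cells as independent draws. Drd5, also of the D1 class, had reads in 9 of 15 D1 cells (highest 38.9 CPM) and in 18 of 26 D2 cells (highest 102.9 CPM), and Drd1 was detected in 4 of 15 D1 cells against 2 of 26 D2 cells. Reads of Drd2 therefore offer no check of the D2 label, and both names are used here as the labels give them.

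Of 11059 measured genes, 112 lay past the threshold toward D1 cells (1.01%) and 147 toward D2 cells (1.33%). No gene separated the kinds: for 0 genes was every D1 cell above every D2 cell or every D2 cell above every D1 cell, also among gene-rich cells. The median over measured genes of the SD between cells was 2.91 log2 units in D1 and 2.92 in D2 cells, larger than most of these differences. Most of the genes past the threshold differed in both components. Of the 112 toward D1, 110 had reads in a larger share of D1 cells (median 25.5 percentage points) and 99 had a level higher by at least 1 log2 unit in the cells with a read; of the 147 toward D2, 146 had the larger share in D2 cells (median 26.2 points) and 106 a level higher by at least 1 log2 unit. Few calls held when parts of the data were removed: 28 of the 112 and 18 of the 147 stayed past the threshold with each age and each cell left out in turn, although none of the 259 changed sign with an age left out.

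Gene-rich cells alone gave a different balance, with 280 genes past the threshold toward D1 (2.53%) and 1329 toward D2 cells (12%). Of the genes already past it in all cells, 65 of the 112 and 113 of the 147 were past it there too. The median over all measured genes was -0.14 in all cells and -0.50 in gene-rich cells, where D2 cells had more genes with a read, and values below are to be read against it. With these negative medians, more measured genes were lower than higher in D1 cells in either setting. Counts of list members lower in D1 cells are to be read against that too. Among the 8 D1 and 11 D2 cells with 6000 to 9000 genes, a range chosen after the data were seen, the counts were 605 (5.47%) and 992 (8.97%) and the median was -0.18. Pairs of gene-rich cells of the same kind had a median Spearman correlation over genes of 0.314 (D1) and 0.376 (D2), and pairs of different kinds 0.338, so gene-rich D1 cells resembled each other no more than they resembled D2 cells. Exon length moved with the difference as well: in gene-rich cells the median was -0.01 for the 1288 measured genes with under 2000 exon bases, -0.41 for the 4427 with 2000 to 5000 and -0.72 for the 5009 with 5000 or more. Where a named gene lost its place past the threshold on leaving out an age or a cell, its smallest value is given below with that omission; others could move it less. The part of depth, of the number of genes per cell and of gene length in the results below was not tested.

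**Figure D2:**
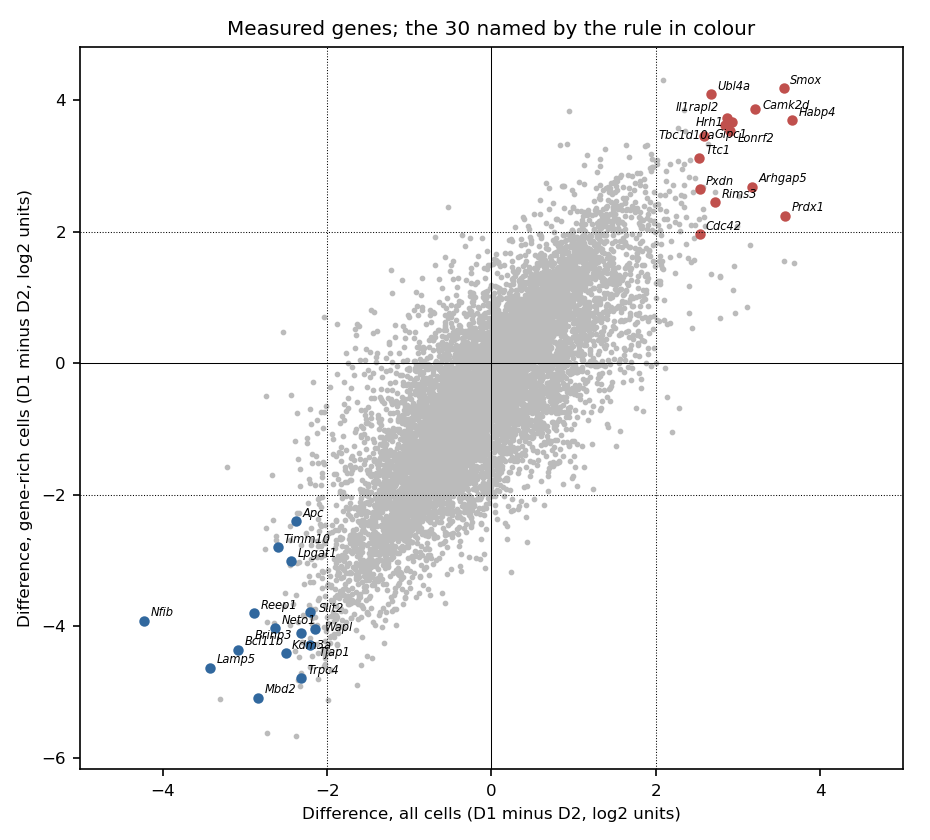
Difference in all 41 cells (horizontal) against that in gene-rich cells (vertical), both as D1 minus D2 in log2 units, for 11059 measured genes; dotted lines mark 2 log2 units. Coloured points are the 15 genes per kind whose difference was largest after each age and each cell was left out, and the cloud lies lower on the vertical axis, with 1329 genes at or below -2.

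The largest difference toward D2 cells was that of Nfib, a transcription factor of the nuclear factor I family that acts in the development of deep-layer neurons. It ranged from 0 to 682 CPM in D1 cells, with a median of 1.60, and from 0 to 1938 CPM in D2 cells, with a median of 434. Reads were found in 10 of 15 D1 cells (66.7%, exact 95% interval 38.4 to 88.2%) and 25 of 26 D2 cells (96.2%, 80.4 to 99.9%), and the groups overlapped. The mean was 105 ± 188 CPM (SD, n = 15) against 525 ± 485 CPM (SD, n = 26), a difference of -4.22 that ran from -5.04 to -3.69 with 1 age left out. With each cell thinned to 250000 reads, 6 of 15 and 23 of 26 cells kept a read of it. In gene-rich cells every D2 cell had at least 131 CPM, while the D1 cells had a median of 113 CPM (difference -3.91). D2 cells were higher at 29, 30 and 34 days and D1 cells at 31 days (0.67), an age with 3 cells of each kind. Nfib lies on chromosome 4 at 82290173 to 82705750 (GRCm38).

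Bcl11b (Ctip2), the transcription factor that directs corticospinal identity, was likewise higher in D2 cells at 29, 30 and 34 days and not at 31 days. Its median was 0 CPM in D1 cells (highest 226) and 77.4 CPM in D2 cells (highest 679), with reads in 6 of 15 and 20 of 26 cells. Among gene-rich cells it had reads in 4 of 9 D1 cells (44.4%, exact 95% interval 13.7 to 78.8%) and 13 of 13 D2 cells (75.3 to 100%), where its lowest value was 31.7 CPM. The difference was -3.08 in all cells, -4.35 in gene-rich cells and 0.67 at 31 days. Thinning left reads in 4 and 18 cells.

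Pyramidal tract markers as a list of 14 measured genes had a median difference of -1.28 in all cells and -1.81 in gene-rich cells, and 12 of 14 members were lower in D1 cells in either setting. Without the cells of 29 days the all-cell median was -0.76. Past the threshold were 0 members toward D1 and 2 toward D2 cells, against 1.01% and 1.33% of all genes. In gene-rich cells 6 lay past it toward D2, against 12% of all genes: Bcl11b, Pou3f1, Npr3, Parm1, Sulf2 and Chst8. Chst8, a sulfotransferase, had reads in 1 of 9 gene-rich D1 cells (34.7 CPM) and 12 of 13 D2 cells (median 101, highest 228 CPM), a difference of -5.12. A D1 cell with fewer genes held it at 260.1 CPM, above every D2 cell. Over all cells it differed by -1.99, and by -1.21 with 1 age left out. Npr3, the natriuretic peptide clearance receptor, differed by -4.36 in gene-rich cells, but in all cells by -2.05, and by only -1.09 without the cells of 29 days; 321 of its 9389 exon bases overlap a gene on the other strand. Counted per cell, the gene-rich D1 cells differed in the number of markers with a read. Of the 9, 2 had reads of 13 of the 14 markers, as many as the highest D2 cells, and the other D1 cells of 4 to 8. The 13 gene-rich D2 cells had reads of 8 to 13, with a median of 12. A read at any level counted, and the part of the number of genes per cell in these counts was not tested.

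Lamp5, a lysosome-associated membrane protein of neurons that marks upper-layer pyramidal cells and a class of interneurons, was the second largest difference toward D2 cells. Its median was 0.828 CPM in D1 cells (highest 837) and 367 CPM in D2 cells (highest 2228), with reads in 8 of 15 and 20 of 26 cells. It differed by -3.42, between -4.45 and -2.53 with 1 age left out, and by 2.29 in the other direction at 31 days. In gene-rich cells 13 of 13 D2 cells had at least 45.6 CPM, against a median of 9.31 CPM and 5 of 9 cells with a read in D1. As a list the upper-layer markers showed no such difference. The 15 measured intratelencephalic and upper-layer genes had a median of -0.05 in all and -0.06 in gene-rich cells, with 7 higher in D1. Besides Lamp5, Ptn (-2.48) and Enpp2 (-2.55) lay past the threshold toward D2 in gene-rich cells, and Rorb, a layer 4 transcription factor, past it toward D1 (2.22, and 1.41 in all cells). These made 3 and 1 of 15, against 12% and 2.53% of all genes. The 7 measured markers of layer 6 and near-projecting cells had medians of -0.13 and 0.22, with none past the threshold in either setting.

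**Figure D3:**
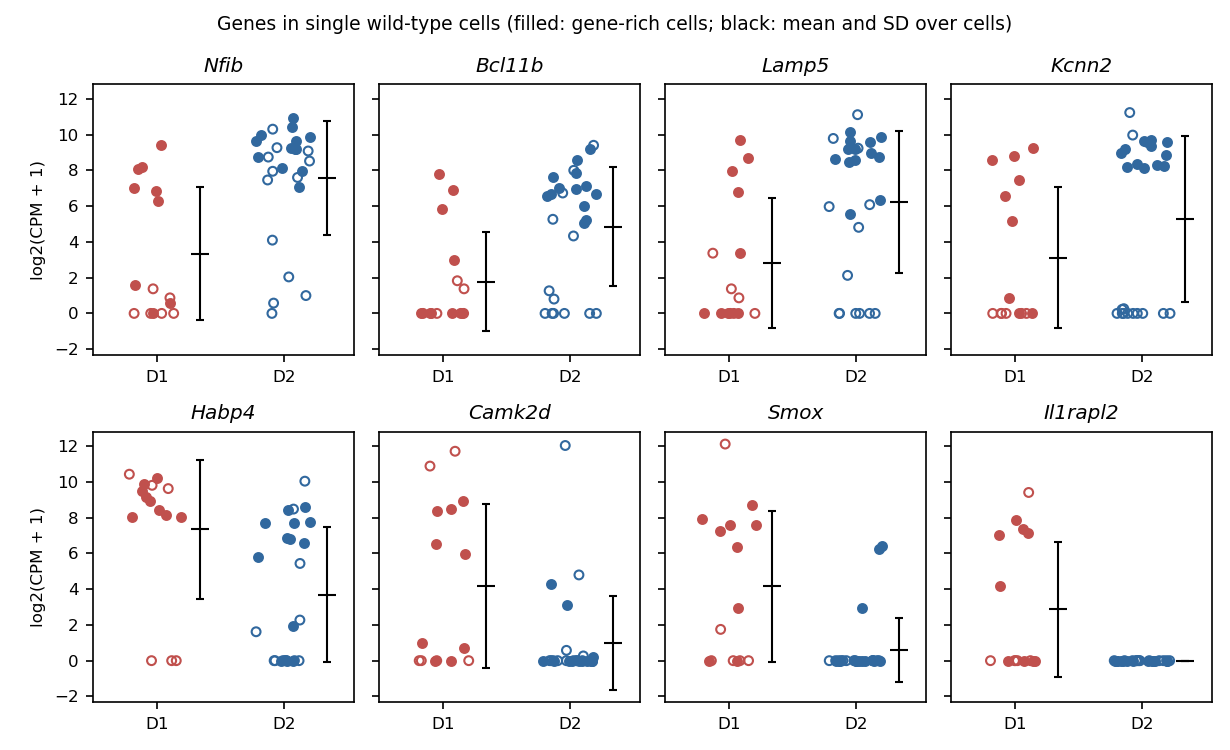
Level of 8 genes, as log2(CPM + 1), in each wild-type D1 (red) and D2 (blue) cell; filled points are gene-rich cells, and black bars give the mean and SD over all cells of a kind. Nfib, Bcl11b, Lamp5 and Kcnn2 have reads in 13 of 13 gene-rich D2 cells, Il1rapl2 has none in any D2 cell, and in each panel the kinds overlap.

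Mbd2, which binds methylated CpG, had reads in 3 of 15 D1 cells, at most 11.9 CPM, and in 14 of 26 D2 cells, at most 823 CPM (difference -2.84, range -3.20 to -2.41 with 1 age left out). In gene-rich cells it was detected in 2 of 9 D1 against 12 of 13 D2 cells, at a median of 81.0 CPM in D2, a difference of -5.08. The 15 genes named toward D2 came from 1 rule on the smallest difference over settings, which included gene-rich cells and the shared ages as well as omissions. Besides Nfib, Lamp5 and Mbd2, the other 12 differed by -2.15 to -3.08 in all cells and by -2.40 to -4.78 in gene-rich cells. The rule favoured large values in both settings and under omissions.

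Slit2, the secreted guidance ligand of Robo receptors, had a median of 0 CPM in D1 cells (highest 55.2, reads in 5 of 15) and 3.78 CPM in D2 cells (highest 509, reads in 16 of 26). It differed by -2.20, by -1.97 to -1.99 when the cells of 28 or 34 days or either of 2 D2 cells were left out, and by -3.78 in gene-rich cells. Brinp3, a BMP- and retinoic acid-inducible neural protein, had reads in 3 of 9 gene-rich D1 cells and 13 of 13 D2 cells (-4.09; -2.32 in all cells and -1.97 without 28 days); 161 of its 7003 exon bases overlap an antisense transcript. Wapl, which releases cohesin from chromosomes, was at or below 80.4 CPM in D1 cells and reached 205 CPM in D2 cells (-2.15, and -1.88 without the cells of 33 days), and Apc, the scaffold that holds beta-catenin for degradation and binds microtubule ends, had medians of 3.19 and 193 CPM (-2.37, and -1.89 without 29 days). Tjap1, a tight junction-associated protein of the Golgi, had reads in 2 of 15 and 12 of 26 cells (-2.20, and -1.91 without 34 days). Reep1, Neto1, Lpgat1, Timm10, Kdm3a (-1.88 without 29 days) and Trpc4 completed the 15 with Bcl11b. Of these 15 genes, 11 were higher in D2 cells at each of the 4 shared ages, which the choice of genes favoured.

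Toward D1 cells the largest of the 15 named differences was that of Habp4, an RNA-binding protein that also binds hyaluronan. It had a median of 486 CPM in D1 cells (lowest 0, highest 1383, reads in 12 of 15) and 3.36 CPM in D2 cells (highest 1055, reads in 15 of 26). In gene-rich cells each of the 9 D1 cells had at least 262 CPM, while the D2 cells had a median of 110.5 and a highest value of 380 CPM. The difference was 3.66, and 3.08 to 4.46 with 1 age left out, with D2 higher at 34 days (-2.53), an age with 2 cells of each kind. Thinned cells kept a read in 12 of 15 and 14 of 26.

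Prdx1, a peroxiredoxin that reduces hydrogen peroxide, had a median of 753 CPM in D1 cells (highest 1754) and 92.5 CPM in D2 cells (highest 1329), a difference of 3.57 that was 2.33 without the cells of 30 days and -0.98 at 31 days. In gene-rich cells it differed by 2.25. Smox, the spermine oxidase, which forms hydrogen peroxide from a polyamine, differed by 3.55 (2.31 without the cells of 30 days) and by 4.18 in gene-rich cells, where 7 of 9 D1 and 3 of 13 D2 cells had a read. Pxdn, a matrix peroxidase, had a median of 1.60 CPM in D1 cells (highest 164) and 0 CPM in D2 cells (highest 90.2), with reads in 8 of 15 and 4 of 26 cells (2.53).

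Cdc42, a small GTPase of the actin cytoskeleton, was detected in 14 of 15 D1 against 19 of 26 D2 cells at medians of 741 and 340.0 CPM (2.53). Rims3, a small member of the RIM proteins of the presynaptic active zone, had reads in 10 of 15 D1 cells, up to 742 CPM, and in 4 of 26 D2 cells, up to 16.4 CPM (2.72). Its summed counts gave 57.4 CPM in D1 (exact 95% Poisson interval 55.4 to 59.4) and 1.56 CPM in D2 cells (1.32 to 1.84). Gipc1, a PDZ adaptor of receptor endocytosis, had medians of 49.4 and 0 CPM (2.59, and 3.45 in gene-rich cells), and Ubl4a, which helps to insert tail-anchored membrane proteins, of 208 and 0 CPM (2.67, and 4.09), although 258 of its 3142 exon bases are shared with Slc10a3. Ttc1 (2.53), Lonrf2 (2.90), Tbc1d10a (2.85) and Arhgap5 (3.17) were also among the 15, and 11 of the 15 were higher in D1 cells at each of the 4 shared ages, which the choice of genes again favoured. Intervals on shares take cells as independent draws. Intervals on summed counts take reads as independent, although the amplified reads carry no molecular identifiers, so they can be too narrow. Neither kind of interval covers differences between animals.

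Hrh1, the histamine H1 receptor, was the receptor gene with the largest difference toward D1 cells. It had reads in 5 of 15 D1 cells, up to 2509 CPM, and in 2 of 26 D2 cells, where it never exceeded 0.492 CPM (difference 2.92, and 2.14 to 3.66 with 1 age left out). Among gene-rich cells 4 of 9 D1 cells (44.4%, exact 95% interval 13.7 to 78.8%) and 0 of 13 D2 cells (upper bound 24.7%) had a read. It stood at 5.09, 5.66 and 2.24 at 29, 30 and 31 days and at -0.11 at 34 days. Hrh3, the H3 receptor, had reads in 10 of 15 and 10 of 26 cells (1.29, and 0.41 with 1 age left out). The 17 measured serotonin, acetylcholine and noradrenaline receptor genes with these histamine receptors had a median of 0.25, and -0.26 without the cells of 28 days. In gene-rich cells the median was 0.10, with 1 past the threshold toward D1 and 3 toward D2, against 2.53% and 12% of all genes. Among the 3 toward D2 was Htr1b, a Gi-coupled serotonin receptor (reads in 2 of 9 D1 and 8 of 13 D2 gene-rich cells, -2.86).

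A search by detection alone gave few genes read in 1 kind only. In gene-rich cells 10 of 15273 genes (0.0655%) had reads in at least 4 of 9 D1 and no D2 cell, and 64 (0.419%) in at least 6 of 13 D2 and no D1 cell. The searches were not equally strict. Absence was required in 13 D2 cells for the D1 group, but for the D2 group in 9 D1 cells, which had fewer genes with a read. The part of this in the counts was not tested. Besides Il1rapl2 and Hrh1, the D1 group held Car4, a membrane carbonic anhydrase, and Coa4, a cytochrome c oxidase assembly factor, which had no read in any of the 26 D2 cells either. The summed counts of D1 cells gave 29.0 CPM for Car4 and 13.2 CPM for Coa4, at least 928-fold and 421-fold higher than a floor of 3 counts over all D2 cells. The choice of genes without reads in the other kind favoured such folds. In single D1 cells with a read, Car4 stood as low as 0.199 CPM and Coa4 as low as 0.499 CPM. Apod, Pamr1, Pold2 and Zfp119b had reads in 1 or 2 of the 26 D2 cells.

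The D2 group held Slc25a29, a mitochondrial carrier of basic amino acids, Dzip1l, a ciliary zinc finger protein, Serinc2 and Rnf39, none of which had a read in any D1 cell. Their summed counts in D2 cells were at least 1395-fold, 1020-fold, 907-fold and 859-fold higher than a floor of 3 counts over all D1 cells. The choice of genes favoured these folds too. Dzip1l had reads in 9 of 13 gene-rich D2 cells (69.2%, exact 95% interval 38.6 to 90.9%) and 0 of 9 D1 cells (upper bound 33.6%), a difference of -2.31 in all cells and of -1.72 without those of 29 days. Reln, the extracellular glycoprotein reelin, had reads in 0 of 9 D1 and 10 of 13 D2 gene-rich cells at a D2 median of 17.6 CPM, but 2 D1 cells with fewer genes held it at up to 1358 CPM, and 246 of its 23738 exon bases overlap a gene on the other strand. Htatip2 likewise reached 957 CPM in 1 D1 cell with fewer genes, so for neither gene did the absence extend to all D1 cells. Cnppd1 and Zswim4 had at most 1.60 CPM in D1 cells.

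Voltage-gated and other ion channels were mostly lower in D1 cells, and more so in gene-rich cells. All 28 measured sodium, HCN, TRP and chloride channel genes were lower in gene-rich D1 cells, with a median of -1.31, where that of all genes was -0.50. Of the 28, 9 lay past the threshold, against 12% of all genes. In all cells 23 of 28 were lower (median -0.43), with 2 of 28 past the threshold toward D2, Trpc4 among them, against 1.33% of all genes. Pex5l (Trip8b), the subunit that sets the number of HCN channels at the dendrite surface, had reads in 5 of 9 D1 and 13 of 13 D2 gene-rich cells, with medians of 6.84 and 406 CPM (-4.66; -1.95 in all cells); 364 of its 8846 exon bases overlap transcripts of the other strand. Trpc4, a receptor-operated cation channel, had reads in 1 of 9 and 11 of 13 (-4.78), and over all cells it differed by -2.32 and without 29 days by -1.87.

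Potassium channel genes had a median of -0.39 in all and -0.75 in gene-rich cells, with 1 of 50 past the threshold toward D1 and 10 toward D2 cells in the latter, against 2.53% and 12% of all genes. Without the cells of 29 days the all-cell median was -0.01. Kcnn2 (SK2), the calcium-activated channel of the afterhyperpolarisation, ranged from 0 to 615 CPM in gene-rich D1 cells (median 95.0) and from 278 to 828 CPM in D2 cells (median 494), so that reads were found in 7 of 9 and 13 of 13 cells. It differed by -3.74 there, by -2.18 in all cells and by -1.64 without the cells of 29 days; 607 of its 7468 exon bases overlap transcripts of the other strand. Kcnd2 (Kv4.2), the A-type channel of dendrites, had reads in 3 of 9 and 11 of 13 (-3.84; -1.95 in all cells), and Kcnk1, a leak channel, in 3 of 9 and 8 of 13 (-2.71; -2.04 in all cells and -1.62 without 32 days). Kcnab1, a beta subunit that inactivates Kv1 channels, was the member past the threshold toward D1, with reads in 7 of 9 D1 and 4 of 13 D2 gene-rich cells, at medians of 41.6 and 0 CPM. It differed by 2.55, by 2.34 in all cells and by 1.84 or 1.98 with either of 2 D1 cells left out, and it was higher in D1 cells at each of the 4 shared ages.

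**Figure D4:**
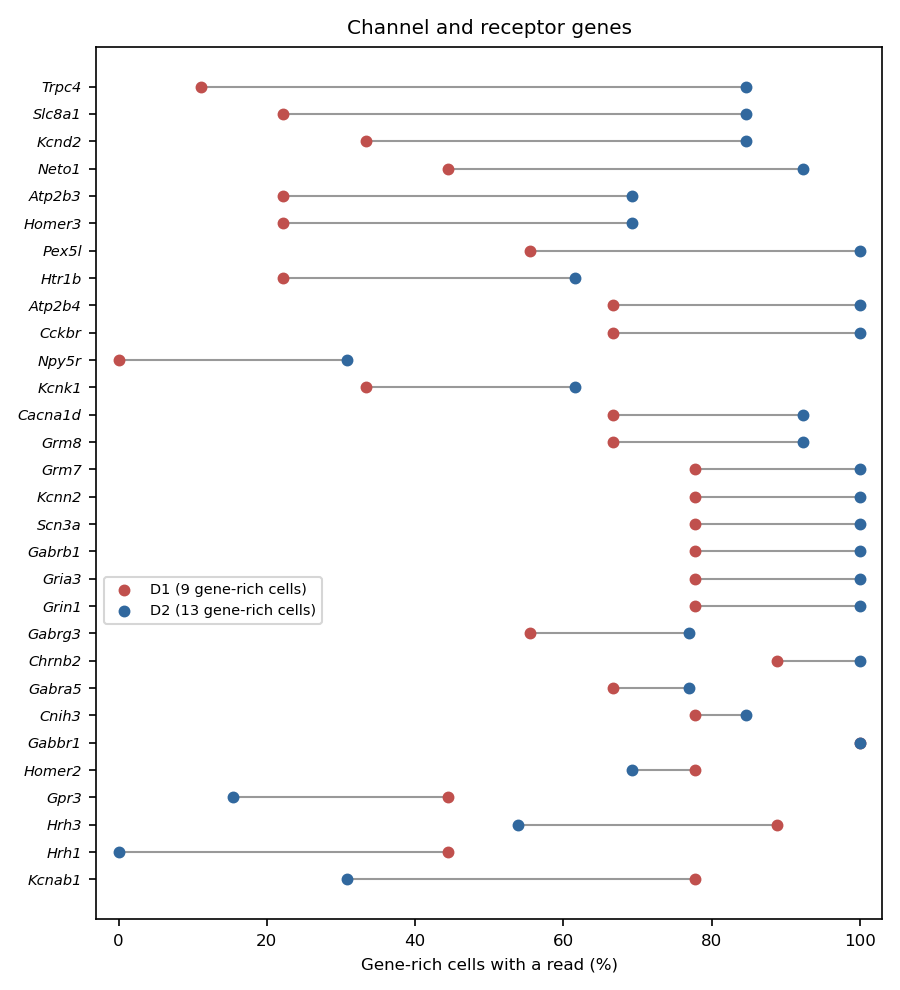
Share of gene-rich cells with a read (horizontal, percent) of 30 channel and receptor genes, among the largest differences of their lists, in 9 D1 (red) and 13 D2 (blue) cells, ordered by the gap. Trpc4 has reads in 1 of 9 D1 but 11 of 13 D2 cells, while Kcnab1, Hrh1, Hrh3, Gpr3 and Homer2 have the larger share in D1 cells.

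Calcium channels and stores had a median of -0.52 and, in gene-rich cells, of -1.71, with 27 of 29 lower in D1 cells and 8 of 29 past the threshold, against 12% of all genes. The all-cell median was 0.02 without the cells of 29 days and -0.24 over the 4 shared ages. These 8 included the L-type channel Cacna1d (-2.67), the T-type channels Cacna1g (-2.70) and Cacna1h (-2.79), the sodium-calcium exchanger Slc8a1 (-3.48; reads in 2 of 9 and 11 of 13 cells) and the plasma membrane pumps Atp2b3 (-2.90) and Atp2b4 (-2.87). In all cells none of the 29 was past the threshold. Calcium sensors and calmodulin kinases were divided. Their median was -0.21 in all and 0.24 in gene-rich cells, with 3 of 25 past the threshold toward D1 and none toward D2 there, against 2.53% of all genes toward D1. These were Camk2d (3.86), Camk1 (2.10) and Ncald, a neuronal calcium sensor. Camk1, calmodulin kinase I, had a median of 264 CPM in D1 (highest 1801) and 14.6 CPM in D2 cells (highest 870.2), a difference of 2.42 in all cells and 1.88 without those of 34 days; 232 of its 5975 exon bases overlap Ogg1 on the other strand.

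Receptors for the fast transmitters were also mostly lower in D1 cells. Of 11 measured GABA-A receptor subunits 11 were lower in D1 cells in either setting, with medians of -0.80 and -2.0. The all-cell median was -0.33 without the cells of 29 days. In the cells with 6000 to 9000 genes 2 of 11 lay past the threshold toward D2, against 8.97% of all genes. In gene-rich cells 6 of 11 did, against 12% of all genes, among them Gabra2, Gabrb1 and Gabrb2. Gabrb1, a beta subunit, ranged from 0 to 497 CPM in gene-rich D1 cells (median 92.5, reads in 7 of 9) and from 51.1 to 845 CPM in D2 cells (median 214, reads in 13 of 13). It differed by -2.48 there, by -1.56 in all cells and by -0.51 with 1 age left out. Ionotropic glutamate receptors and their partners had medians of -0.70 and -1.51, with 7 of 24 past the threshold in gene-rich cells, against 12% of all genes. The all-cell median was -0.04 without the cells of 29 days and -0.07 over the 4 shared ages. The 7 included the AMPA subunits Gria1 (-2.47, but 0.19 in all cells) and Gria3 (-3.33), the NMDA subunits Grin1 (-3.51) and Grin2a (-2.65) and the kainate subunit Grik2 (-3.29). Grin1 differed by -1.85 in all cells and by -0.05 with 1 age left out; 1307 of its 9700 exon bases overlap an antisense transcript. Metabotropic glutamate receptors and Homer proteins had medians of -0.26 (0.03 without 29 days) and -1.28. In gene-rich cells 3 of 10 lay past the threshold, against 12% of all genes. Homer3, which links these receptors to calcium stores, had reads in 2 of 9 and 9 of 13 gene-rich cells (-3.32; -2.21 in all cells and -1.90 without 33 days), but 874 of its 3440 exon bases are shared with Ddx49 on the other strand.

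In the synapse, the 36 presynaptic release genes had medians of -0.50 and -0.68 and the 30 postsynaptic density genes of -0.30 and -1.17. In gene-rich cells 7 of 36 and 5 of 30 lay past the threshold, all toward D2, where 12% of all genes did. Without the cells of 29 days the all-cell medians were -0.0029 and 0.05. Syt5, a synaptotagmin of dense-core vesicles, differed most among the former, with reads in 6 of 9 D1 and 13 of 13 D2 gene-rich cells and medians of 1.51 and 247 CPM (-4.11; -1.92 in all cells). Adhesion and axon guidance genes had medians of -0.24 and -1.10, and in gene-rich cells 24 of 87 were past the threshold toward D2 and 1, Il1rapl2, toward D1, against 12% and 2.53% of all genes. The all-cell median was 0.07 without the cells of 29 days. Named after their values were seen, the 24 included Slit2 and its receptor Robo1 (-3.27), the semaphorin Sema6d (-3.99) with the semaphorin receptors Plxna1 (-2.18), Plxna2 (-2.52) and Nrp1 (-3.07), and Flrt3 (-4.45), which binds latrophilins. Cdh8, a classical cadherin, had reads in 3 of 9 and 12 of 13 gene-rich cells, with medians of 0 and 112 CPM (-4.70; -2.32 in all cells and -1.77 without 29 days).

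Several lists with low medians in gene-rich cells held long genes, but length and median did not go together in every list. Measured members had a median exon length of 10371 bases for calcium channels, 8692 for adhesion genes, 7447 for sodium, HCN, TRP and chloride channels and 6472 for ionotropic glutamate receptors, against 4719.5 for all measured genes with a length. Microglia markers (1931 bases) and nuclear genes of oxidative phosphorylation (1737 bases) were among the shortest, and their medians in gene-rich cells were 0.72 and 0.21. Postsynaptic density genes (9269 bases), cortical transcription factors (7069.5 bases), presynaptic genes (7041 bases) and intratelencephalic and upper-layer markers (7301 bases) were long too, with medians of -1.17, -0.32, -0.68 and -0.06. The lowest medians belonged to GABA-A receptor subunits (6360 bases) and pyramidal tract markers (5318.5 bases). In all cells together, the median of genes with 5000 or more exon bases was -0.21 and that of genes under 2000 was 0.03. The part of length in the list values was not tested.

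**Figure D5:**
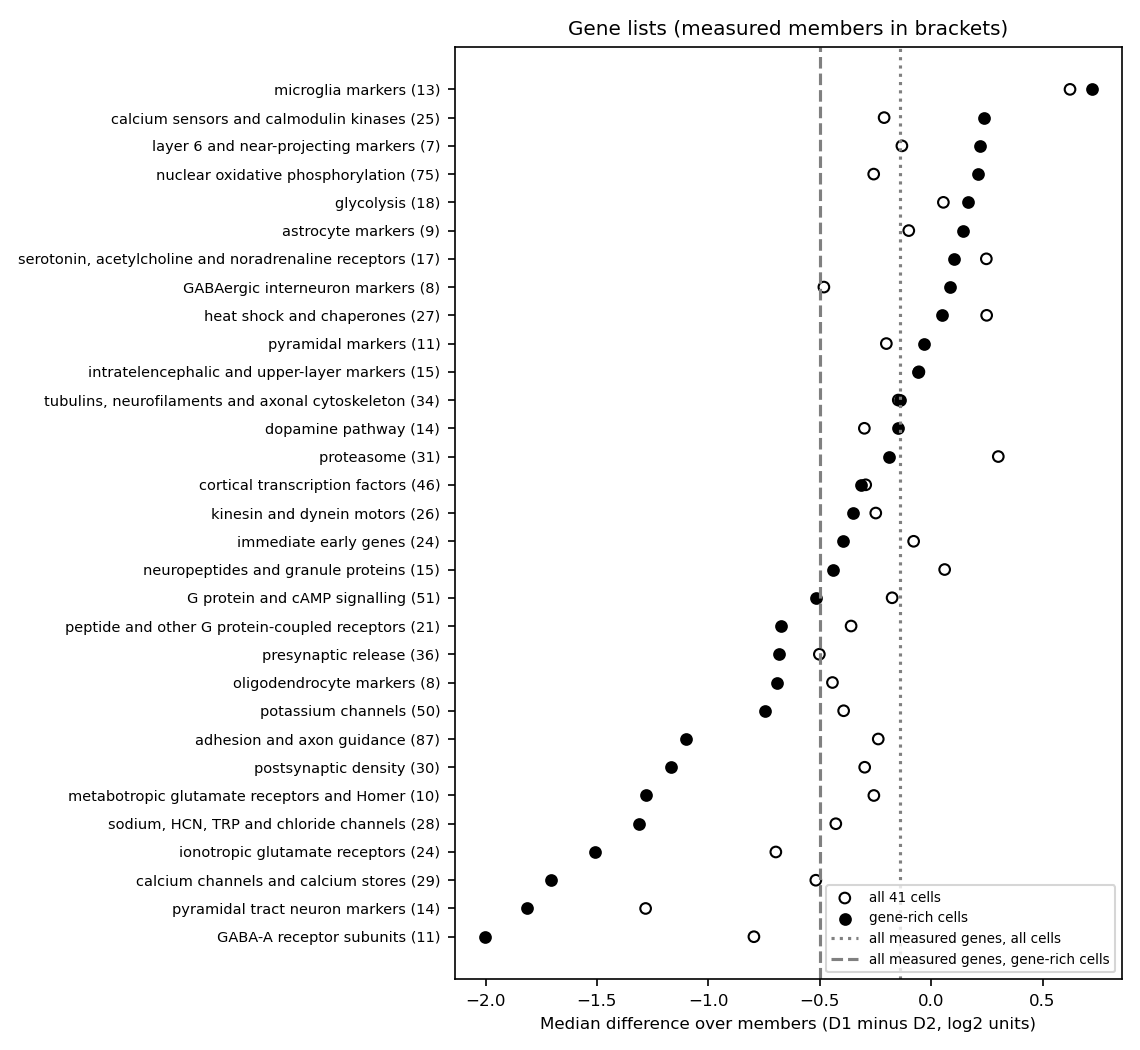
Median difference (D1 minus D2, log2 units) over the measured members of 31 gene lists, in all 41 cells (open) and in gene-rich cells (filled); numbers of members are in brackets, and the vertical lines give the medians of all measured genes, -0.14 and -0.50. GABA-A receptor subunits and pyramidal tract markers lie lowest in gene-rich cells, at -2.0 and -1.81, and microglia markers highest, at 0.72.

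Components of the dopamine pathway had medians of -0.30 and -0.15. In all cells 1 of 14 measured genes lay past the threshold, toward D2, against 1.33% of all genes. That gene was Ncs1, neuronal calcium sensor 1, which binds the D2 receptor and slows its desensitisation. It had reads in 9 of 15 D1 cells (median 1.78, highest 74.5 CPM) and 22 of 26 D2 cells (median 21.7, highest 1181 CPM), a difference of -2.35, and of -3.58 without the cells of 30 days. Adcy5, the adenylyl cyclase that D1 and D2 receptors control in striatal cells, had reads in 2 of 9 and 9 of 13 gene-rich cells (-2.85; -1.72 in all cells and -0.85 with 1 age left out). Ppp1r1b (DARPP-32), the phosphatase inhibitor controlled by protein kinase A, stood at -1.08 and Drd1 at 1.71. G protein and cyclic AMP genes had medians of -0.18 and -0.52. In all cells 1 of 51 lay past the threshold, toward D2, against 1.33% of all genes. This was Gnai1, an inhibitory G protein subunit, which differed by -2.19, but by -1.40 without the cells of 34 days. In gene-rich cells 1 of 51 lay past it toward D1 and 7 toward D2, near the 2.53% and 12% of all genes.

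Transcription factors of the cortex had medians of -0.29 and -0.32 over 46 measured genes. In gene-rich cells 2 lay past the threshold toward D1 and 8 toward D2, against 2.53% and 12% of all genes. In all cells none lay past it toward D1 and 4 toward D2, against 1.01% and 1.33%. Next to Nfib and Bcl11b these were Mef2d, an activity-regulated factor of the MEF2 family (-2.14; -1.48 without 34 days; 531 of 5985 exon bases overlap the other strand), and Foxp1, a forkhead factor (-2.01; -1.59 without 35 days; 435 exon bases shared with genes on the same strand). In the cells with 6000 to 9000 genes Foxp1 stood at 0.09. These D1 cells had a median of 6429.5 genes and these D2 cells of 7293, so they still differed in the number of genes. Immediate early genes had medians of -0.08 and -0.40, with Btg2, an antiproliferative early gene, at -2.06 and, without 29 days, at -1.31.

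Other cell types were represented in both kinds. Microglia markers had a median of 0.62, and of -0.17 without the cells of 30 days. Past the threshold toward D1 were 4 of 13, against 1.01% of all genes. In gene-rich cells 0 of 13 were, against 2.53% of all genes, with a median of 0.72 and 11 of 13 higher in D1 cells. The summed level of microglia markers ranged from 0.319 to 11495 CPM in D1 cells (median 898) and from 0.167 to 5971 CPM in D2 cells (median 733). The complement genes, whose products form 1 molecule, were not alike in all cells: C1qa stood at 3.68 (2.40 without 30 days) and C1qb at 2.04 (1.13 without 31 days), while C1qc stood at -1.66, detected in 5 of 15 D1 against 15 of 26 D2 cells. In gene-rich cells each of these complement genes was higher in D1 cells, C1qc included. Aif1 (2.18) ranged from 1.29 without the cells of 30 days to 4.60 without those of 29 days, and Ctss (2.18) stood at 1.61 with 1 D1 cell left out and 1.86 without 31 days. The summed level of astrocyte markers ranged up to 15032 CPM in D1 (median 1059) and 12514 CPM in D2 cells (median 940.1), and that of oligodendrocyte markers up to 13691 (median 338) and 11147 CPM (median 585). Gja1, the astrocyte gap junction protein connexin 43, was detected in 6 of 15 D1 but 1 of 26 D2 cells (1.90). The medians in all cells were -0.10 for 9 astrocyte and -0.44 for 8 oligodendrocyte markers, with none past the threshold. Of these, 5 and 7 were higher in D2 cells. In gene-rich cells the medians were 0.14 and -0.69, with Aldh1l1, Aldoc and Mobp past the threshold toward D1, against 2.53% of all genes. Mobp was the 1 oligodendrocyte marker of 8 higher in D1 cells there, and 7 were higher in D2 cells. Of the precursor and endothelial markers 1 gene each was measured (0.93 for Vcan and -0.66 for Rgs5), Cdh5 had no read in any cell, and Pecam1 never exceeded 3.19 CPM. Of GABAergic interneuron markers 8 were measured, with medians of -0.48 and 0.08 and only Lamp5 past the threshold. The part of other cells' RNA in the differences between the kinds was not tested.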

How the data were processed

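RNA of single patch-clamped cells was sequenced, 1 library per cell. The authors deposited whole-number read counts per gene symbol, which were used as deposited. They also deposited a normalized table of non-negative signal values for 14067 symbols, used only as an alternative, since the sources used here do not give its scaling factors. Per the submitters' processing notes, Trimmomatic, STAR, featureCounts and GRCm38 were used; the sources used here give no versions, settings or strand of counting, so reads of overlapping genes on opposite strands may not be told apart. Of 22800 symbols, 22103 matched the reference spelling; exon lengths and overlaps come from the GENCODE annotation of GRCm38. Columns matching no sample (2) were not used.

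Counts were divided by each cell's total in genes and averaged as log2(CPM + 1). Named genes came from 3 rules. First, 15 genes per direction had the largest smallest-difference over all cells, gene-rich cells, the mean of the 4 shared ages, and each age and each cell left out, among 7570 genes with at least 10 CPM on average and reads in at least 33.3% of the cells of a kind. Second, up to 8 genes per direction had reads in 1 kind of gene-rich cell only, in at least 4 D1 or 6 D2 cells. Finally, up to 4 members of each of 33 gene lists had the largest difference, with the first 3 markers of cell type lists. Some genes that these rules select are not reported here. Genes outside these rules were named after their values were seen. Members and lists were chosen with earlier results of these data known. Shares carry exact Clopper-Pearson and summed counts exact Poisson 95% intervals, and thinning was to 250000 reads. The calculation was tested on simulated data. Python 3.11.15, numpy 2.4.6, pandas 2.3.3, scipy 1.17.1, matplotlib 3.10.9 and R 4.3.3 with edgeR 4.0.16 (TMM factors, as an alternative) were used.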

Additional observations from a re-analysis of the deposited data

How the results depend on the processing

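The counts past the threshold depended on the setting, and the cause was not tested. Toward D1 the count of 112 became 344 with the authors' normalized table, 9 with a pseudocount of 10 CPM, 582 with summed counts, 347 with the mean of the 4 shared ages, 225 without 28 days, 345 without 29 days, 280 in gene-rich cells and 605 in cells with 6000 to 9000 genes. Toward D2 the count of 147 became 472 with the normalized table, 3 with the pseudocount of 10 CPM, 1173 with summed counts, 392 without 30 days, 480 without 31 days, 236 without 35 days, 1329 in gene-rich cells, 992 in cells with 6000 to 9000 genes and 90 after subtracting the median of all genes. In gene-rich cells the D1 count of 280 became 533, 22, 554 and 624 with the first 4 of these settings, 637 without 29 days, 600 without 30 days, 606 after subtracting the median and 605 in cells with 6000 to 9000 genes. The D2 count of 1329 became 2131 with the normalized table, 164 with the pseudocount, 2270 without 31 days and 702 after subtracting the median. The gene range and the subtraction were chosen after seeing the data. With 1 cell left out the counts ran from 86 to 207 and from 102 to 260, and in gene-rich cells from 263 to 414 and from 1068 to 1765. The median over all genes moved from -0.14 to 0.04 with the mean of the 4 shared ages, 0.05 without 29 days and -0.39 without 31 days.

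With summed counts the single precursor and endothelial markers stood at 3.30 and -2.68. Of the values of named genes under the alternatives 3248 moved by less than the spread between cells, 31 by more, and 5 were counted as changed in direction. These 5 belonged to genes past the threshold in all cells: Hspd1 (0.010) and Foxp1 (0.088) in cells with 6000 to 9000 genes, Ndufb10 there (0.36) and in gene-rich cells (0.48), and Atp5g3 with summed counts (0.0068). Sign changes of smaller differences were not all counted. One such gene was C1qc, lower in D1 cells over all cells but higher in gene-rich cells. The median SD between cells was 2.91 log2 units in D1 and 2.92 in D2 cells, larger than the threshold. A gene could thus lose its place past the threshold and still count as moved by less. No paired analysis was possible because no label ties a D1 cell to a D2 cell and the result comes from no test.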

Other observations

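Nuclear genes of oxidative phosphorylation had a median of -0.26 in all cells and 0.21 in gene-rich cells (49 of 75 higher in D1), where the median of all genes was -0.50. In all cells 2 of 75 lay past the threshold toward D2, against 1.33% of all genes. These were Ndufb10, a complex I subunit, whose median was 38.9 CPM in D1 against 143 CPM in D2 cells (-2.54, but 0.48 in gene-rich cells), and Atp5g3, a subunit of the ATP synthase ring (-2.21; -1.78 with 1 D1 cell left out). In gene-rich cells Ndufv1, which holds the NADH site of complex I, stood at 2.10. With Cycs it made 2 of 75 past the threshold toward D1, against 2.53% of all genes. Glycolysis genes had medians of 0.05 and 0.16, and the muscle-type phosphofructokinase Pfkm, with reads in 8 of 15 D1 and 22 of 26 D2 cells, was the 1 of 18 past the threshold (-2.39; -1.97 without 28 days). Proteasome genes had medians of 0.30 and -0.19. Psmc5, an ATPase of its base, had reads in 13 of 15 D1 cells (median 182 CPM) and 14 of 26 D2 cells (median 26.8 CPM), a difference of 2.78 and, in gene-rich cells, of 0.68. Psmd13, a lid subunit, stood at 2.05 and, without 28 days, at 1.34, and 342 of its 3377 exon bases overlap Sirt3. Chaperones had medians of 0.25 and 0.05; Cct5, of the ring that folds actin and tubulin, stood at 2.00 (1.13 without 29 days) and the mitochondrial chaperonin Hspd1 at -2.04 (-1.50 without 28 days).

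The axonal cytoskeleton held members past the threshold in either setting. Its list had medians of -0.15 and -0.14, with 2 of 34 past the threshold toward D2 in all cells, against 1.33% of all genes. Nefl, the light neurofilament subunit, had reads in 12 of 15 D1 cells (median 9.11, highest 292 CPM) and 24 of 26 D2 cells (median 72.3, highest 2558 CPM). It differed by -2.45, by -1.87 without 35 days and by -2.47 in gene-rich cells, and 1108 of its 3380 exon bases overlap Nefm on the other strand in the annotation. Sptbn1, a spectrin of the membrane skeleton, stood at -2.07 (-1.27 without 34 days) and at -2.03 in gene-rich cells. Kinesin and dynein motors had medians of -0.25 and -0.35, with Dync1li2, a dynein light intermediate chain, at -2.35 (-1.62 without 29 days) and -3.02, and Kif3c at -2.74, although 3016 of the 7406 exon bases of Kif3c overlap transcripts of the other strand. Neuropeptides and granule proteins had medians of 0.06 and -0.44, and Scg3, which sorts granule cargo, stood at -2.28 (-1.74 without 29 days) and -3.36. Peptide and other G protein-coupled receptors had medians of -0.36 and -0.67, with Cckbr, the cholecystokinin B receptor, at -3.42 and Gpr3, which raises cyclic AMP without a ligand, at 2.14 in gene-rich cells.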
